A study of Homo sapiens with 27 samples.

Results

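Nascent RNA of HL-60 cells treated with actinomycin D (ActD) was set against nascent RNA of HL-60 cells given the vehicle, DMSO. The comparison took the 2 libraries with those titles of the 27 in the series, and 12149 of the 58233 genes in each table (20.9%), namely those with a mean of at least 1 CPM over the 2 libraries, where CPM is a gene's count scaled to a library total of 1000000. HL-60 is a human promyelocytic leukaemia line that grows in suspension and makes the granule proteins of early granulocytes. Cells of both libraries were grown in DMEM with serum, and ActD was used at 0.8 µM. No length of treatment and no dose of DMSO is stated in the labels. New RNA had been isolated with a click-chemistry capture kit. Used only beside the main pair were a nascent library from cells treated with 100 µM DRB, a nascent library and a total RNA library from untreated cells, and peak lists from chromatin immunoprecipitation of the histone variant H2A.Z and its acetylated form acH2A.Z in DMSO and ActD. Every group had 1 library. There was therefore no replicate check and no test, and each ratio compares libraries, not conditions.

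ActD is a DNA-binding drug that slides between bases, mainly at GC steps, and stops RNA polymerases from moving along the template. RNA polymerase I, which makes ribosomal RNA, is known to be the most sensitive, and higher doses also stop RNA polymerase II, which makes messenger RNA. Capture kits of this kind feed cells a uridine analogue that is built into RNA during the labelling time, and pull that RNA down, so the counts follow recent synthesis together with any loss of the new RNA. CPM values are shares of 1 library. They cannot show a fall in all nascent RNA, and fewer cells or less new RNA per cell cannot be told apart.

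The DMSO library held 14426368 expected counts and the ActD library 12600067. Genes encoded by the mitochondrial genome took 45.9% of the counts in DMSO and 56.9% in ActD, against 66.5% in DRB and 0.5599% in untreated nascent RNA, and what set this share was not tested. That left 7799808 counts in DMSO and 5435877 in ActD for all nuclear genes, and 13081 and 9067 genes with at least 10 counts. A library in which a gene had 0 counts allows up to 3 counts of it, 0.208 CPM in DMSO and 0.238 CPM in ActD. Both this floor and the intervals given later reflect counting alone, because no source names molecular identifiers that would tell PCR copies apart. Of 8 promyelocyte markers 7 were detected in both libraries, with summed levels of 2009 CPM in DMSO and 1473 CPM in ActD, while ELANE was at 0 in both. All 7 mature neutrophil and monocyte markers checked were at 0 in both libraries. Of the other marker sets, 4 of 6 erythroid, 4 of 6 lymphoid and 6 of 7 epithelial and fibroblast genes were at 0 in both, and the 3 sets' summed levels were 0.0693 to 10.5 CPM in DMSO and 0 to 2.46 CPM in ActD. In wider gene lists the picture was less clean. Of 22 neutrophil and monocyte genes 8 were above 0 in DMSO and 7 in ActD, and the 7 kept summed to 38.6 CPM in DMSO and 11.2 CPM in ActD. Of 20 lymphoid genes 6 were above 0 in DMSO and 3 in ActD, and the 3 kept summed to 34.4 CPM in DMSO and 30.8 CPM in ActD. Nearly all of the ActD sum was CD4, at 15.7 CPM in DMSO and 30.6 CPM in ActD, while PAX5 and TRAC had 1 count each in ActD.

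A group of short, quickly switched genes had members far to both sides, so the DNA before the start of 5 of them is shown first. These are the JUN, JUNB, FOSB and FOS genes, which code for subunits of the AP-1 transcription factor, and PPP1R15A, which codes for a phosphatase subunit that restarts translation after stress. Each line is the 250 bases before the annotated start, read 5′ to 3′ along the gene, from the RefSeq promoter table of build GRCh38.p14. Capitals mark TATAAA, the TATA box, and TGACGT, the core of the cyclic AMP response element, on either strand. JUN lies at chr1:58784048-58784297 on the minus strand, JUNB at chr19:12791236-12791485 on the plus strand, FOSB at chr19:45467746-45467995 on the plus strand, FOS at chr14:75278578-75278827 on the plus strand and PPP1R15A at chr19:48872171-48872420 on the plus strand.
JUN: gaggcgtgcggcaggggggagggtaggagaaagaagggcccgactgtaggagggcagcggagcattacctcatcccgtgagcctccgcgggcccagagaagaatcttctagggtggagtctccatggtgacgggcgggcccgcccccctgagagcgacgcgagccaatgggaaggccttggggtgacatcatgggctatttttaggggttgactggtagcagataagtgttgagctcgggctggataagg
JUNB: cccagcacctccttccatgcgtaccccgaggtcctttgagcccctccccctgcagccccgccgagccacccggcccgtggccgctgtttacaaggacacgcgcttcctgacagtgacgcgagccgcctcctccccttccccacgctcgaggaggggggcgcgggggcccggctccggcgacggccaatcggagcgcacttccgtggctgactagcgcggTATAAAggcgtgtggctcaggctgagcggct
FOSB: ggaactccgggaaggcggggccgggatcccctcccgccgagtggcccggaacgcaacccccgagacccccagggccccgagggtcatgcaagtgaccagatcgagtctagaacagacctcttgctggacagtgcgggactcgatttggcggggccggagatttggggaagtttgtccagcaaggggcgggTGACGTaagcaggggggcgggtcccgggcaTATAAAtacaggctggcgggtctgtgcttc
FOS: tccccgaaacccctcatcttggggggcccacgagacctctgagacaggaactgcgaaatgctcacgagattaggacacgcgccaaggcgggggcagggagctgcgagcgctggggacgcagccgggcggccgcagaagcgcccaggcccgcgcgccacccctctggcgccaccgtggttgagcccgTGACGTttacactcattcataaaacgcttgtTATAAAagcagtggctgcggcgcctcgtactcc
PPP1R15A: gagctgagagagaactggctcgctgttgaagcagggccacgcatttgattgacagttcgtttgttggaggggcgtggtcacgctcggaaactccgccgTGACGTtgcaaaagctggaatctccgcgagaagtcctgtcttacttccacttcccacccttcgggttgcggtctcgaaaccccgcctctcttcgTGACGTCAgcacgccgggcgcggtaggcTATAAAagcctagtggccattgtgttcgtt

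The JUN window held neither motif, JUNB held TATAAA alone, and FOSB, FOS and PPP1R15A held both. The TATA box began 30 to 33 bases before the start in the 4 genes that had it. Across the 35116 windows of this length in the promoter table, 10.7% held TATAAA and 7.102% held TGACGT. Of the kept genes, 6325 had a single window; TATAAA was in 6.502% of those higher in ActD, 4.63% of those lower and 5.37% of those within 2-fold. TGACGT was in 11.9%, 11.7% and 12.4% of the same classes. Among the 13 early-response genes with a single window, TATAAA was in 2 of 7 higher and 1 of 5 lower members. TGACGT was in 1 of 7 higher and 4 of 5 lower members, so the 5 windows printed here do not stand for that group. FOSB and FOS carried the same pair of motifs in the same order and stood at opposite ends of the early-response genes, as the values below give.

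Genes were called higher or lower when the log2 ratio of ActD to DMSO, with 1 CPM added to each level, was at least 1 in size, that is 2-fold. The early-response transcription factors are genes that cells switch on within minutes of a signal without making new protein first, and their RNAs are short-lived. Among these factors 11 of 26 were higher and 11 lower (median log2 ratio -0.12, or 1.05 relative to the median gene, and 12 higher and 11 lower with mitochondrial genes left out of the total), beside 15.9% higher and 53.1% lower over all kept genes. With mitochondrial genes left out of the total, 19.7% of all kept genes were higher and 49% lower. The filter shaped this split, since 7 of the 26 were under 1 CPM in ActD and 3 under 1 CPM in DMSO. Such members were kept through the other library alone. At a mean of at least 20 CPM 5 of 8 factors were higher and 3 lower (median 1.48), beside 17.5% and 34.5% of all genes at that mean. JUN stood at 31.7 CPM in DMSO and 318 CPM in ActD, a log2 ratio of 3.29 with a counting interval of 3.19 to 3.47. JUNB, its close relative, stood at 25.2 CPM in DMSO and 208 CPM in ActD (2.997), and FOSB at 2.495 CPM in DMSO and 68.7 CPM in ActD (4.32). In untreated nascent RNA these 3 genes were at 8.15, 17.8 and 4.09 CPM, so the ActD library was the highest of the 3 for each, and in DRB they were at 2.999, 34.1 and 0.418 CPM.

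MAFF, a small Maf factor without an activation domain, was at 0.139 CPM in DMSO and 17.5 CPM in ActD (4.02), and its DMSO value rests on 2 counts (counting interval 5.11 to 10.03). IER3, a survival factor induced by stress, went with it at 1.11 CPM in DMSO and 31.5 CPM in ActD (3.95). The zinc finger gene KLF2 had 0 counts in DMSO and 4.84 CPM in ActD, at least 23.3-fold higher. IER5 (1.79), IER2 (1.44), KLF11 (1.22), KLF6 (1.17) and CSRNP1 (1.02) made up the other 5 of the higher members. IER2 was higher than in DMSO but, at 22.2 CPM, below its 37.4 CPM in untreated nascent RNA. Of these CSRNP1 lay closest to the 2-fold line.

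FOS itself had 79 counts in DMSO, 5.48 CPM, and 0 in ActD, at least 23-fold lower. MYC, the growth-promoting transcription factor whose gene is highly active in HL-60, stood at 153 CPM in DMSO and 34.8 CPM in ActD (-2.10, counting interval -2.29 to -1.99), beside 178 CPM in untreated nascent RNA. SRF, the factor that drives many early-response genes from CArG boxes, stood at 39.2 CPM in DMSO and 8.095 CPM in ActD (-2.14). JUND (-2.05), FOSL2 (-1.42), KLF10 (-1.501) and MAFK (-2.40) were also lower, while EGR1 was within 2-fold at 4.51 CPM in DMSO and 6.03 CPM in ActD. AP-1 genes thus lay on both sides: JUN, JUNB and FOSB were higher, FOS, JUND and FOSL2 lower and FOSL1 within 2-fold at -0.59. Relative to the median gene 13 early-response factors were higher and 2 lower, FOS and MAFK, so the other lower members were within 2-fold on that scale.

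**Figure D1:**
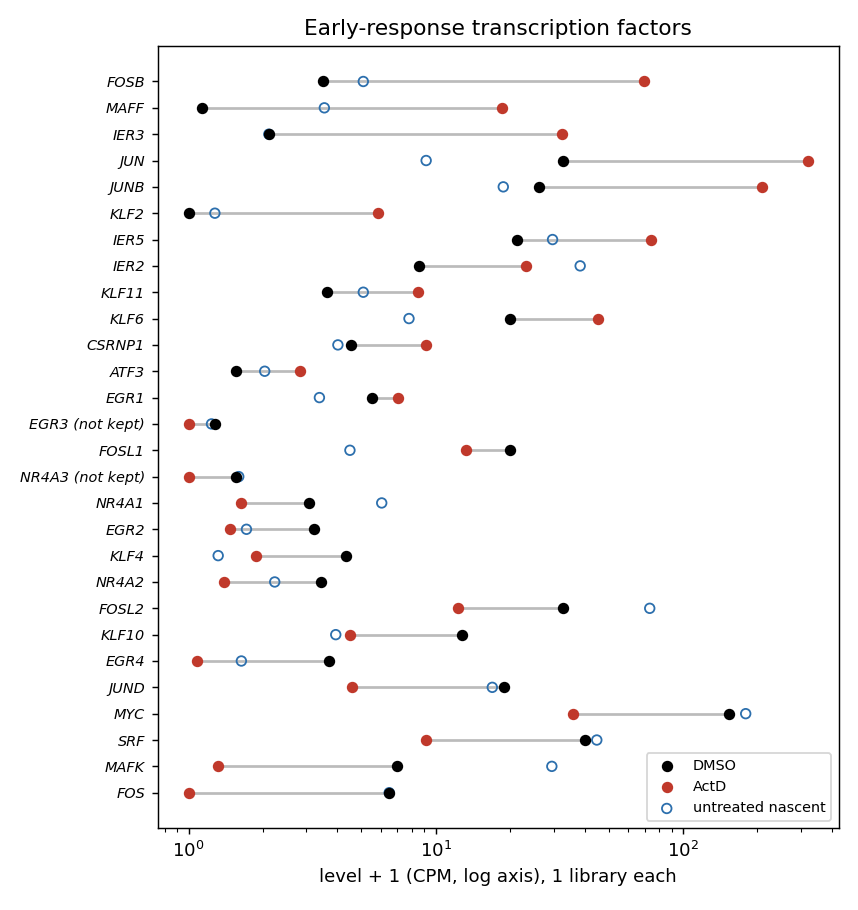
Level plus 1 CPM on a log axis for each of the 28 early-response transcription factors listed in the tables, with 1 library for DMSO (black), ActD (red) and untreated nascent RNA (open). Grey lines join DMSO and ActD; FOSB, MAFF and IER3 have the highest ratios and FOS, with 0 counts in ActD, the lowest, and the open points show where untreated cells stood.

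Over all kept genes 1933 were higher and 6454 lower in ActD, and 3762 (30.97%) were within 2-fold. The median log2 ratio was -1.17, and the quartiles were -2.30 and 0.25. With mitochondrial genes left out of the total the counts were 2388 higher and 5944 lower, and the median was -0.93. Relative to the median gene, that is with -1.17 subtracted from every ratio, they were 3879 and 3345, so the share of called genes that were higher went from 23.05% on all counts to 28.7% and 53.7%. Which of these scales is nearest to the number of molecules per cell cannot be told from the files.

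A gene's ratio went with its level. Of 3648 genes with a mean of 1 to 5 CPM, 72.9% were lower, with a median of -1.86. Of the 4528 genes with a mean of at least 20 CPM, 17.5% were higher and 34.5% lower, and the median was -0.46. The filter itself adds to this, since 3490 kept genes were under 1 CPM in ActD and 600 under 1 CPM in DMSO, and such genes had to differ. In ActD 1317 kept genes had 0 counts, against 168 in DMSO.

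Ratios also spread widely among well-covered genes. At a mean of at least 20 CPM, with mitochondrial genes left out of the total, the quartiles of ActD to DMSO ratios lay 2.35 apart on the log2 scale. The same distance was 1.59 between DMSO and untreated nascent RNA and 0.56 between untreated nascent and total RNA. Between the DMSO and untreated nascent libraries 55.2% of genes were higher and 6.94% lower in DMSO, with a median of 1.15. Differences of 2-fold on this scale were therefore common between 2 libraries that had not met ActD. The scale still counts ribosomal RNA and RNA polymerase III genes. Together with mitochondrial genes these took 56.1% of counts in untreated nascent RNA, where mitochondrial genes had 0.56%. In DMSO they took 47.7%, and mitochondrial genes had 45.9%. The 55.2% and the median of 1.15 thus include a shift of scale shared by all genes, which was not separated from differences of single genes.

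**Figure D2:**
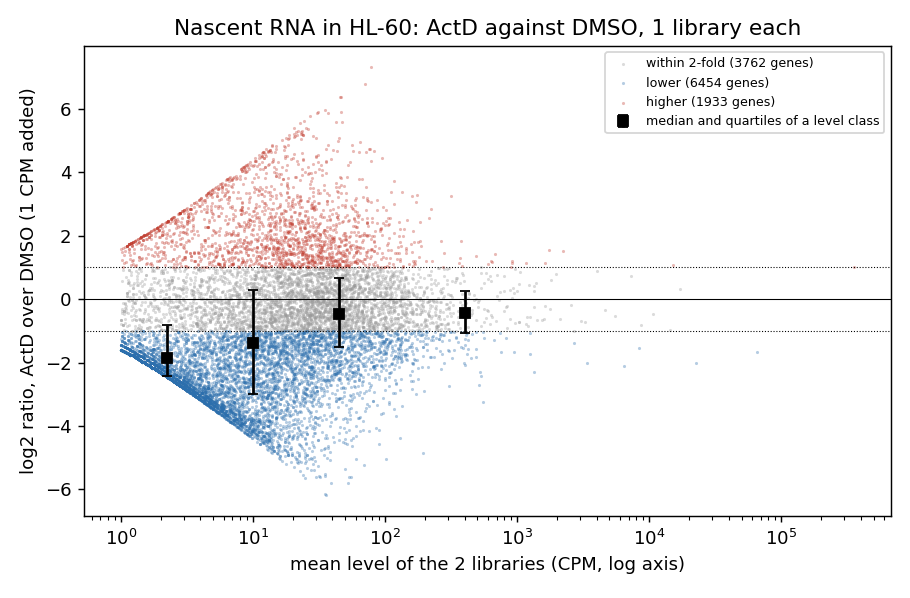
Log2 ratio of ActD to DMSO (1 CPM added) against the mean level of the 2 libraries in CPM on a log axis, with 1 point per kept gene and dotted lines at 2-fold. Black squares and bars are the median and quartiles in 4 level classes, drawn at the middle of each class (the last at an arbitrary place above 100 CPM), and the median moves from -1.86 in the lowest class to -0.44 in the highest.

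Shorter genes had higher ratios. Genomic span, from first to last base of the gene in RefSeq, was known for 10073 kept protein-coding genes. In the shortest quintile, with a median span of 5.62 kb, 23.2% were higher and 43.1% lower, and the median log2 ratio was -0.56. In the longest quintile, with a median span of 149 kb, 8.44% were higher and 59.01% lower, and the median was -1.43. The medians of the quintiles between were -1.08, -1.23 and -1.40, so each longer quintile was lower than the one before. The difference, longest quintile minus shortest, was -0.87.

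Levels differ between the quintiles, with DMSO medians of 11.7 CPM in the shortest and 21.6 CPM in the longest. Restricted to genes with a mean of at least 20 CPM, the medians went from 0.22 in the shortest quintile to -0.85 in the longest. Ribosomal protein genes are short and abundant, and without them the medians were -0.69 and -1.43. Against untreated nascent RNA in place of DMSO the same genes had medians of -0.46 in the shortest quintile and -1.0 in the longest, and of 0.74 and -0.40 at a mean of at least 20 CPM. With genes filtered anew on the untreated and ActD libraries the difference between longest and shortest was -0.38. For DRB, which shares the DMSO library, the medians from shortest to longest were -1.63, -1.77, -1.55, -1.31 and -0.61, highest in the longest. Transcript length gave no stable order, because its difference of -0.40 between the longest and shortest quintile turned to 0.78 with the deposited TPM values. The GC content of the 250 bases before the start had medians of 65.2% in higher, 65.6% in lower and 64.4% in other genes.

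**Figure D3:**
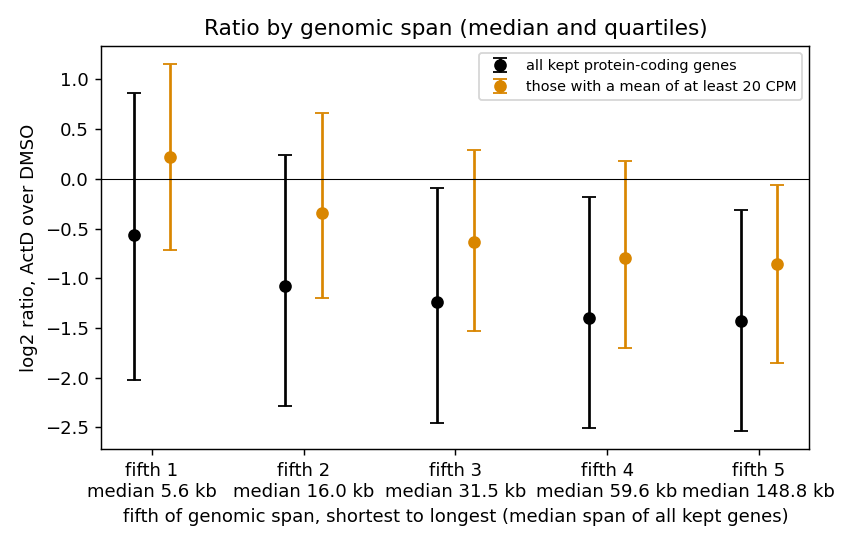
Median log2 ratio of ActD to DMSO (points) with quartiles (bars) by quintile of genomic span, for all kept protein-coding genes (black) and for those with a mean of at least 20 CPM (orange, with quintiles of their own). Medians go from -0.56 to -1.43 in black and from 0.22 to -0.85 in orange, and the quartiles of neighbouring quintiles overlap.

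Feedback genes, which are switched on by a signal and then damp it, also lay on both sides. Among the measured members 6 of 25 were higher and 15 lower (median log2 ratio -1.495, or -0.32 relative to the median gene, and 6 higher and 14 lower with mitochondrial genes left out of the total). PPP1R15A stood at 59.3 CPM in DMSO and 571 CPM in ActD (3.25), far above its 30.04 CPM in untreated nascent RNA and 9.69 CPM in DRB. BTG2, an antiproliferative gene and p53 target, was at 1.59 CPM in DMSO and 35.4 CPM in ActD (3.81), and SGK1, a stress-induced kinase gene, at 2.01 CPM in DMSO and 47.4 CPM in ActD (4.01). Lower members included NFKBIA, the main inhibitor of NF-kappa-B, with 216 counts in DMSO and 2 in ActD and a counting interval of -9.61 to -4.69. The mRNA-destabilising factor ZFP36L2 (18.8 against 0.397 CPM) and the helix-loop-helix inhibitor ID2 (14.3 against 0.476 CPM) were lower too. Among the 7 members with a mean of at least 20 CPM 3 were higher and 1 lower.

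Genes of the BCL2 family, which decide whether mitochondria release cytochrome c, were mixed: 4 of 13 were higher and 6 lower (median log2 ratio -0.17, or 1.00 relative to the median gene, and 6 higher and 5 lower with mitochondrial genes left out of the total). PMAIP1, whose product NOXA binds and disables MCL1, had the highest ratio at 22.6 CPM in DMSO and 247 CPM in ActD (3.39, counting interval 3.28 to 3.62). The antiapoptotic genes BCL2L1 (2.29) and BCL2L2 (1.96) were higher, and MCL1, a short-lived survival factor, came to 0.97, 206 CPM in DMSO and 405 CPM in ActD. BCL2 (-1.01, but -0.69 with mitochondrial genes left out of the total), the BH3-only gene BCL2L11 (-2.02) and BID (-3.08) were lower. BCL2L2 lies beside a neighbouring gene with which it forms read-through transcripts, and its reads may be shared.

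Of receptors and caspases of cell death 1 of 18 was higher and 12 lower (median log2 ratio -1.35, or -0.17 relative to the median gene, and 2 higher and 10 lower with mitochondrial genes left out of the total), where 53.1% of all kept genes were lower. Relative to the median gene 4 were higher and 5 lower, and among the 8 with a mean of at least 20 CPM 3 were lower. The adaptor FADD stood at 57.05 CPM in DMSO and 5.397 CPM in ActD (-3.18) and the ubiquitin ligase BIRC2 at 13.6 CPM in DMSO and 0.238 CPM in ActD, the last from 3 counts (counting interval -8.12 to -4.27). CASP10, an initiator caspase, was the one higher member at 8.18 CPM in DMSO and 55.95 CPM in ActD (2.63). CYCS, cytochrome c itself, was within 2-fold at 197 CPM in DMSO and 247 CPM in ActD.

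Among p53 targets 3 of 18 were higher and 9 lower (median log2 ratio -1.03, or 0.14 relative to the median gene). On all counts these shares, 16.7% and 50%, were near the 15.9% and 53.1% over all kept genes. With mitochondrial genes left out of the total 6 of 18 were higher and 7 lower, beside 19.7% and 49% of all kept genes. The higher 3 were BTG2, the ribonucleotide reductase subunit RRM2B (1.30) and SESN1 (1.18). SESN2 (-2.23), the polymerase POLK (-1.72) and the nuclease AEN (-1.22) were lower. HL-60 is known to lack p53.

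NF-kappa-B is a pair of Rel proteins held in the cytoplasm by inhibitors. Of its factors, regulators and targets 3 of 19 were higher and 12 lower (median log2 ratio -1.94, or -0.77 relative to the median gene, and 4 higher and 11 lower with mitochondrial genes left out of the total). Over the 6 members with a mean of at least 20 CPM the median was 0.77. NFKB2, which codes for the p100 precursor, stood at 17.3 CPM in DMSO and 127 CPM in ActD (2.81). NFKB1, which codes for the p105 precursor, stood at 27.1 CPM in DMSO and 0.159 CPM in ActD and had 2 counts in ActD, with a counting interval of -10.47 to -5.55. IKBKG (1.44) and CHUK (-3.88), subunits of the kinase that frees NF-kappa-B, also lay on opposite sides.

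Genes of the integrated stress response, which follow the factor ATF4, divided as well: 7 of 22 were higher and 8 lower (median log2 ratio -0.34, or 0.84 relative to the median gene, and 8 higher and 7 lower with mitochondrial genes left out of the total). DDIT3, the CHOP transcription factor, stood at 3.33 CPM in DMSO and 67.8 CPM in ActD (3.99), ATF5 at 52.96 CPM in DMSO and 157 CPM in ActD (1.55) and ATF4 itself at 385 CPM in DMSO and 880.3 CPM in ActD (1.19). HERPUD1, of protein degradation at the endoplasmic reticulum, was also higher (1.45). DDIT4 (-2.39), an inhibitor of mTORC1, and XBP1 (-3.32), a factor of the unfolded protein response, were lower, and TRIB3 had 114 counts in DMSO and 0 in ActD, at least 33.2-fold lower.

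**Figure D4:**
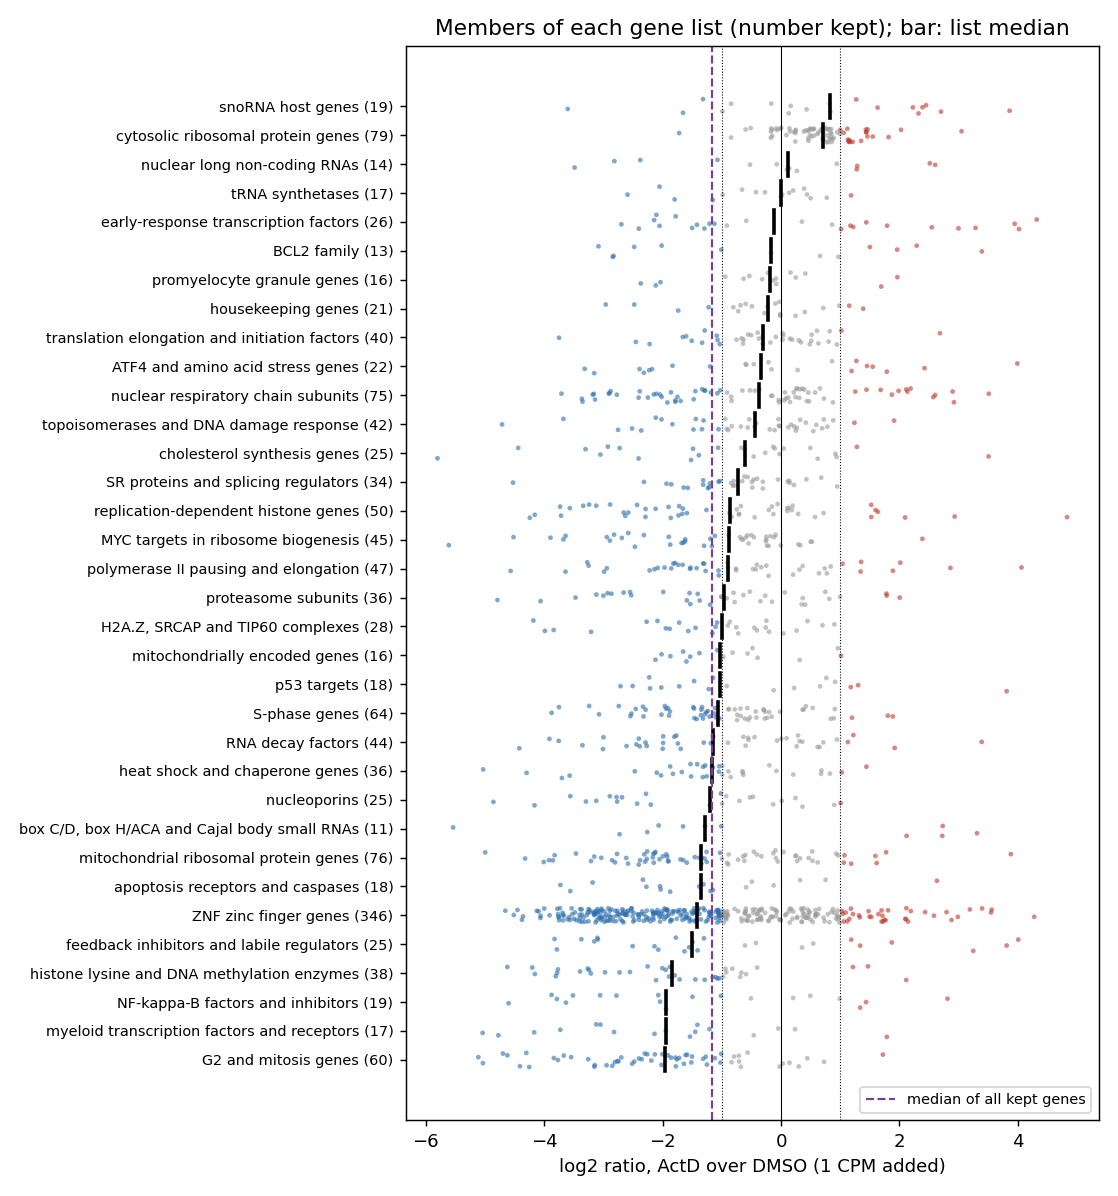
Log2 ratio of ActD to DMSO for each kept member (points, red at 2-fold or more above and blue at 2-fold or more below) of the gene lists with at least 10 kept members, ordered by the list median (black bar). The dashed line is the median of all kept genes, -1.17; snoRNA host genes and ribosomal protein genes have the highest medians, 0.82 and 0.71 on the scale of all counts, and G2 and mitosis (-1.96), myeloid (-1.94) and NF-kappa-B genes (-1.94) the lowest 3.

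Ribosomal protein genes lay mostly above 0 against DMSO. Of 79 kept genes for proteins of the cytosolic ribosome 19 were higher and 1 lower (median 0.71), and 67 had a ratio above 0. With mitochondrial genes left out of the total 43 were higher and 1 lower, and relative to the median gene 75 were higher and 0 lower. Their summed level was 28075 CPM in DMSO and 47633 CPM in ActD. Against untreated nascent RNA, however, 25 were higher and 15 lower (median 0.42). RPL36 (36.5 CPM in DMSO and 309.6 CPM in ActD, 3.05) and RPL10 (2.03) had the highest ratios and RPS16 (25.3 CPM in DMSO and 6.98 CPM in ActD, -1.72) the lowest. These genes have many processed pseudogenes, between which the counting could split their reads.

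Host genes of small nucleolar RNAs carry those RNAs in their introns. Their spliced transcripts are often unstable and, like ribosomal protein mRNAs, often begin with a pyrimidine tract. Among the host genes 8 of 19 were higher and 3 lower (median log2 ratio 0.82, or 1.996 relative to the median gene, and 10 higher and 3 lower with mitochondrial genes left out of the total). SNHG8 stood at 5.74 CPM in DMSO and 96.9 CPM in ActD (3.86), GAS5 at 34.7 CPM in DMSO and 178 CPM in ActD (2.32) and SNHG3 at 48.7 CPM in DMSO and 231 CPM in ActD (2.23). DANCR (2.45) and EPB41L4A-AS1 (2.70, but below 0 with the deposited TPM values) were higher as well, and SNHG17 was lower at 28.5 CPM in DMSO and 1.43 CPM in ActD (-3.60). For SNHG8 the untreated nascent level was 95.8 CPM, as high as in ActD, and against untreated nascent RNA 4 of 19 were higher and 3 lower.

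Translation factors were mostly within 2-fold: 2 of 40 were higher and 11 lower (median log2 ratio -0.31, or 0.86 relative to the median gene, and 5 higher and 7 lower with mitochondrial genes left out of the total). RACK1, a scaffold on the small ribosomal subunit, stood at 659.9 CPM in DMSO and 1269 CPM in ActD (0.94), and EIF6, which keeps the subunits apart, at 2.56 CPM in DMSO and 21.9 CPM in ActD (2.68). Subunits of the initiation factor eIF3 went both ways, with EIF3G at 1.02 and EIF3I, EIF3J and EIF3L at -3.75, -2.45 and -2.22. The tRNA synthetases, which charge tRNAs with amino acids, gave 1 higher and 4 lower of 17 (median log2 ratio 0.00, or 1.17 relative to the median gene, and 2 higher and 3 lower with mitochondrial genes left out of the total). Relative to the median gene 9 were higher and 1 lower, and CARS (-2.59) and GARS (-2.05) were the lowest. Of genes of ribosome assembly that MYC is known to drive 1 of 45 was higher and 22 lower (median log2 ratio -0.88, or 0.29 relative to the median gene, and 1 higher and 18 lower with mitochondrial genes left out of the total). UTP20 (59.5 CPM in DMSO and 0.238 CPM in ActD, the last from 3 counts, with a counting interval of -10.25 to -6.41) and WDR75 (36.5 CPM in DMSO and 0.635 CPM in ActD), of the small-subunit processome, were at the low end, while NOP56, a core protein of box C/D particles and host of small nucleolar RNAs, was within 2-fold at 304 CPM in DMSO and 437 CPM in ActD. TERT, the catalytic subunit of telomerase and also on this list, was the one higher member at 5.55 CPM in DMSO and 33.3 CPM in ActD (2.39), below its 52.3 CPM in untreated nascent RNA.

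The mitochondrial genome is copied into RNA by its own polymerase, POLRMT, as long precursors that are then cut at the tRNAs. Its ribosomal RNAs and its messenger RNAs lay on opposite sides. MT-RNR2, the 16S rRNA, took 234930.2 CPM in DMSO and 473639 CPM in ActD (1.01), and MT-RNR1, the 12S rRNA, 15351 and 19103 CPM (0.32). All 13 mRNAs had ratios below 0, from -2.12 to -0.40, and 8 of the 13 were lower by 2-fold, while relative to the median gene 6 of them lay above 0. As shares of mitochondrial counts all 13 were below 0 too. MT-CYB (-2.12) and MT-ND5 (-2.02), at the far end of the heavy-strand unit, were the lowest, and MT-ND4L (-0.40) and MT-CO1 (-0.48) the highest of the mRNAs. Ratios did not fall steadily along the genome: MT-ND2, near the rRNAs, was at -1.65 and MT-ND4, just before MT-ND5, at -0.97. As a share of mitochondrial counts the pair of rRNAs went from 54.5% to 86.7%, a comparison that does not depend on nuclear genes. This rise was that of MT-RNR2, which went from 51.1% to 83.3%, while MT-RNR1 had 3.34% in DMSO and 3.36% in ActD. In DRB MT-CYB stood at 14001 CPM and MT-RNR2 at 352641 CPM, both above DMSO. MT-ND6, read from the other strand, overlaps opposite-strand transcripts, and no source says whether counting used strand. Relative to the median gene the mitochondrial list's median of -1.03 became 0.15, and against untreated nascent RNA 15 of its 16 genes, MT-CYB and MT-ND5 among them, were higher.

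**Figure D5:**
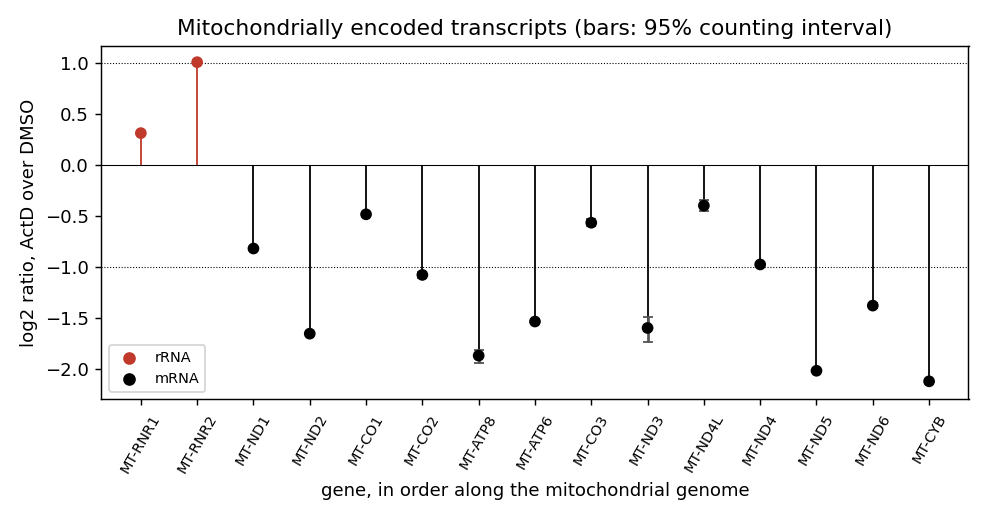
Log2 ratio of ActD to DMSO for the 15 mitochondrial rRNAs (red) and mRNAs (black) in their order along the mitochondrial genome, with 95% counting intervals that are mostly smaller than the points. Both rRNAs lie above 0 and all 13 mRNAs below it on the scale of all counts, with MT-CYB lowest at -2.12, while 6 mRNAs lie above the median gene.

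Nuclear genes for the respiratory chain and for the mitochondrial ribosome did not follow one pattern. Of nuclear respiratory chain subunits 13 of 75 were higher and 31 lower (median log2 ratio -0.36, or 0.81 relative to the median gene, and 15 higher and 28 lower with mitochondrial genes left out of the total). However, 16 of the 75 were under 1 CPM in ActD and 0 in DMSO. At a mean of at least 20 CPM 10 of 43 subunits were higher and 6 lower (median 0.25). NDUFA4 was highest at 3.54 CPM in DMSO and 50.6 CPM in ActD (3.51). NDUFA5 of complex I stood at 12.2 CPM in DMSO and 98.97 CPM in ActD (2.92) and COX8A of complex IV at 1.18 CPM in DMSO and 15.2 CPM in ActD (2.90), while UQCRC1 of complex III stood at 16.5 CPM in DMSO and 0.714 CPM in ActD (-3.35) and NDUFS7 had 134 counts in DMSO and 0 in ActD, at least 39.01-fold lower. Among mitochondrial ribosomal proteins 7 of 76 were higher and 43 lower (median log2 ratio -1.34, or -0.17 relative to the median gene, and 9 higher and 40 lower with mitochondrial genes left out of the total), but 20 of them were kept through DMSO alone, and at a mean of at least 20 CPM 3 of 25 were higher and 7 lower. MRPL44 was lowest at 71.4 CPM in DMSO and 1.27 CPM in ActD (-4.995) and MRPS24 highest at 1.04 CPM in DMSO and 29.05 CPM in ActD (3.88). With every level under 3 counts raised to that floor and nothing added, the medians of the mitochondrial ribosomal protein, NF-kappa-B, cell death and feedback lists were -1.53, -3.28, -1.68 and -1.62.

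Of 60 kept genes of G2 and mitosis 1 was higher and 47 were lower (median log2 ratio -1.96, or -0.78 relative to the median gene, and 2 higher and 41 lower with mitochondrial genes left out of the total). At a mean of at least 20 CPM 37 of 49 were lower. Against untreated nascent RNA 25 were lower and 8 higher. AURKA, the spindle pole kinase, stood at 198 CPM in DMSO and 5.08 CPM in ActD (-5.03), CCNB2, a mitotic cyclin, at 68.1 CPM in DMSO and 1.67 CPM in ActD (-4.70) and ECT2, the exchange factor of cytokinesis, at 58.3 CPM in DMSO and 0.714 CPM in ActD (-5.11). In untreated nascent RNA they were at 41.6, 21.1 and 22.4 CPM, between DMSO and ActD. CDCA3 was the higher member (25.02 CPM in DMSO and 84.8 CPM in ActD), and KIF22 (0.73) and BUB3 (0.44) were within 2-fold.

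Of genes for DNA replication in S phase 3 of 64 were higher and 33 lower (median log2 ratio -1.07, or 0.10 relative to the median gene, and 6 higher and 26 lower with mitochondrial genes left out of the total). The licensing factor CDT1 (16.1 CPM in DMSO and 62.2 CPM in ActD, 1.89), the primase subunit PRIM1 (1.80) and the helicase HELLS (1.199) were higher. The ubiquitin ligase adaptor DTL (19.5 CPM in DMSO and 0.397 CPM in ActD, -3.87) and RFC5 of the clamp loader (-3.75) were lowest. Histone genes that are read in S phase gave 7 higher and 24 lower of 50 (median log2 ratio -0.85, or 0.32 relative to the median gene, and 8 higher and 23 lower with mitochondrial genes left out of the total), and against untreated nascent RNA 19 higher and 18 lower (median 0.34). HIST1H2AB (144 CPM in DMSO and 7.14 CPM in ActD) was lower, but in untreated nascent RNA it was at 9.93 CPM, within 2-fold of ActD (-0.43). HIST2H2BC, a pseudogene, had 3.45 expected counts in DMSO and 432 in ActD (counting interval 5.81 to 9.65). Near-identical histone copies share reads, so single histone genes are uncertain. Genes for topoisomerases and DNA damage signalling gave 2 higher and 13 lower of 42 (median log2 ratio -0.43, or 0.74 relative to the median gene, and 6 higher and 12 lower with mitochondrial genes left out of the total). NBN of the MRE11 complex stood at 45.96 CPM in DMSO and 0.794 CPM in ActD (-4.71) and TOP3A at 32.02 CPM in DMSO and 1.59 CPM in ActD (-3.67), while TOP3B (1.91) was higher.

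Of RNA polymerase II subunits and elongation factors 7 of 47 were higher and 23 lower (median log2 ratio -0.90, or 0.27 relative to the median gene, and 10 higher and 20 lower with mitochondrial genes left out of the total), shares of 14.9% and 48.9% that are near those over all kept genes. POLR2A, the largest subunit, stood at 1913 CPM in DMSO and 574 CPM in ActD (-1.74), which was still above its 197 CPM in untreated nascent RNA. POLR2E was lower at 21.3 CPM in DMSO and 0.794 CPM in ActD (-3.64) and POLR2H higher at 27.9 CPM in DMSO and 116 CPM in ActD (2.01). Of the pausing complex NELF, NELFB was higher at 6.03 CPM in DMSO and 50.1 CPM in ActD and NELFA was at 9.43 CPM in DMSO and 0.0794 CPM in ActD with 1 count in ActD (counting interval -12.21 to -4.39). SUPT4H1, a subunit of the pausing and elongation factor DSIF, stood at 173 CPM in DMSO and 6.35 CPM in ActD (-4.57). In untreated nascent RNA SUPT4H1 was at 13.7 CPM, and against that library its ratio was within 2-fold (-0.997). MLLT3 of the super elongation complex stood at 1.11 CPM in DMSO and 34.2 CPM in ActD (4.06). Of splicing regulators 0 of 34 were higher and 13 lower (median log2 ratio -0.72, or 0.45 relative to the median gene, and 2 higher and 6 lower with mitochondrial genes left out of the total). Relative to the median gene 8 were higher and 2 lower, and against untreated nascent RNA 7 were higher and 6 lower (median 0.42). SRSF2 (124 CPM in DMSO and 239.9 CPM in ActD, 0.95) and SRSF1 (0.68) had the highest ratios, PTBP1 (-2.31) and SF3B1 (-1.93) were lower, and SRSF8, which arose by copying of another family member, was lowest at 36.7 CPM in DMSO and 0.635 CPM in ActD (-4.53).

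RNA decay factors gave 4 higher and 23 lower of 44 (median log2 ratio -1.15, or 0.023 relative to the median gene, and 6 higher and 19 lower with mitochondrial genes left out of the total). EXOSC1 (7.76 CPM in DMSO and 32.1 CPM in ActD, 1.92) and LSM5 (1.22) were higher, whereas CNOT2 and CNOT6L of the deadenylase complex stood at 25.5 CPM in DMSO and 0.238 CPM in ActD and at 18.9 CPM in DMSO and 0.476 CPM in ActD, the first with 3 counts in ActD (counting interval -9.03 to -5.18).

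Of genes for the histone variant H2A.Z, which the series studies, its loader SRCAP and the TIP60 acetyltransferase complex 0 of 28 were higher and 14 lower (median log2 ratio -0.99, or 0.18 relative to the median gene, and 2 higher and 12 lower with mitochondrial genes left out of the total). The lower share, 50.0%, is near the 53.1% over all kept genes, and relative to the median gene 5 were higher and 5 lower. The H2A.Z genes themselves were within 2-fold, H2AFZ at 61.3 CPM in DMSO and 73.7 CPM in ActD (0.26) and H2AFV at 88.6 CPM in DMSO and 166 CPM in ActD (0.90). KAT5, which codes for TIP60, had 289 counts in DMSO and 2 in ActD, with a counting interval of -10.03 to -5.11, and was at 15.9 CPM in untreated nascent RNA. VPS72, an H2A.Z chaperone of both complexes, stood at 115 CPM in DMSO and 6.29 CPM in ActD (-3.99) and EPC1 of the TIP60 complex at 18.99 CPM in DMSO and 0.397 CPM in ActD (-3.84). Enzymes that write or erase histone lysine and DNA methylation were lower more often than not: 3 of 38 were higher and 27 lower (median log2 ratio -1.84, or -0.66 relative to the median gene, and 3 higher and 22 lower with mitochondrial genes left out of the total), and against untreated nascent RNA 26 were lower and 0 higher. KDM2B (109.6 CPM in DMSO and 3.49 CPM in ActD, -4.62) and KDM2A (123.04 CPM in DMSO and 5.95 CPM in ActD, -4.16), a pair of CXXC demethylases, were among the lowest, and KDM4B (2.11), DNMT3A (1.47) and EZH1 (1.21) made up the higher 3, though DNMT3A was lower on the deposited TPM scale (-1.29).

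Gene lists of the granulocyte lineage differed from each other. Most promyelocyte granule genes were within 2-fold: 2 of 16 were higher and 3 lower (median log2 ratio -0.18, or 0.99 relative to the median gene, and 2 higher and 3 lower with mitochondrial genes left out of the total). MPO, myeloperoxidase, stood at 521 CPM in DMSO and 492 CPM in ActD (-0.08), and CTSG and PRTN3, granule proteases, came to -0.08 and -0.14. LYZ, lysozyme, was lower at 38.9 CPM in DMSO and 8.73 CPM in ActD (-2.04), and CFD and RNASE3 were higher at 1.96 and 1.69. Of the transcription factors and receptors of the lineage 1 of 17 was higher and 13 lower (median log2 ratio -1.94, or -0.77 relative to the median gene, and 1 higher and 13 lower with mitochondrial genes left out of the total). CEBPA stood at 48.04 CPM in DMSO and 0.794 CPM in ActD (-4.77), GATA2 at 52.8 CPM in DMSO and 0.635 CPM in ActD (-5.04), CD33 at 38.4 CPM in DMSO and 1.19 CPM in ActD (-4.17) and MYB at 595 CPM in DMSO and 217 CPM in ActD (-1.45). SPI1, which codes for PU.1, was within 2-fold at 83.8 CPM in DMSO and 98.9 CPM in ActD (0.24). CEBPB was the one higher member (1.79). In untreated nascent RNA CEBPA and GATA2 were at 93.2 and 67.2 CPM, above both treated libraries. Of 7 kept neutrophil and monocyte genes 0 were higher and 5 lower (median log2 ratio -1.65, or -0.48 relative to the median gene). The calls were the same with mitochondrial genes left out of the total. All 7 had a mean under 20 CPM, and 4 were under 1 CPM in ActD.

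Stress chaperones and metabolism gave smaller groups. Of heat shock and chaperone genes 2 of 36 were higher and 21 lower (median log2 ratio -1.16, or 0.012 relative to the median gene, and 5 higher and 14 lower with mitochondrial genes left out of the total). DNAJB1 (76.9 CPM in DMSO and 211 CPM in ActD, 1.44) and HSPA1B (1.03), both targets of HSF1, were higher, and HSPA1B shares reads with its near-identical neighbour HSPA1A (0.68). DNAJA2 (117 CPM in DMSO and 2.62 CPM in ActD, -5.03) was the lowest. Cholesterol synthesis genes gave 2 higher and 11 lower of 25 (median log2 ratio -0.61, or 0.56 relative to the median gene, and 4 higher and 10 lower with mitochondrial genes left out of the total), and SQLE, squalene epoxidase, was lowest at 103 CPM in DMSO and 0.873 CPM in ActD (-5.80). Among proteasome subunits 3 of 36 were higher and 18 lower (median log2 ratio -0.96, or 0.21 relative to the median gene, and 6 higher and 16 lower with mitochondrial genes left out of the total), with PSMC5 at 2.005 and PSMB5 at 28.8 CPM in DMSO and 0.0794 CPM in ActD, the latter with 1 count in ActD (counting interval -13.81 to -6.02). Nucleoporins gave 1 higher and 14 lower of 25 (median log2 ratio -1.201, or -0.03 relative to the median gene, and 2 higher and 12 lower with mitochondrial genes left out of the total), with NUP88 at 30.3 CPM in DMSO and 0.0794 CPM in ActD, again from 1 count in ActD (counting interval -13.88 to -6.09). Genes often used for normalisation gave 2 higher and 4 lower of 21 (median log2 ratio -0.23, or 0.94 relative to the median gene, and 4 higher and 3 lower with mitochondrial genes left out of the total): GAPDH had a ratio of 0.40 and ACTB of -0.72, which lie more than 1 apart on the log2 scale.

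The ZNF zinc finger genes, many of them repressors, formed the largest list. Of 346 kept 36 were higher and 204 lower (median log2 ratio -1.42, or -0.25 relative to the median gene, and 51 higher and 181 lower with mitochondrial genes left out of the total). They are lowly expressed, 121 of them were kept through DMSO alone, and among the 99 with a mean of at least 20 CPM 19 were higher and 32 lower (median -0.21). ZNF799 (1.91 CPM in DMSO and 55.4 CPM in ActD, 4.28) and ZNF440 (6.86 CPM in DMSO and 91.6 CPM in ActD, 3.56) were at the high end and ZNF236 (106 CPM in DMSO and 3.89 CPM in ActD, -4.45) at the low end.

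Among RNAs that are not translated, those of RNA polymerase III had more higher than lower entries. RN7SL1, of the signal recognition particle, stood at 9701 CPM in DMSO and 20549 CPM in ActD (1.08), RN7SK, which holds back the elongation kinase P-TEFb, at 1146 CPM in DMSO and 3272 CPM in ActD (1.51) and RMRP at 5.68 CPM in DMSO and 34.1 CPM in ActD (2.39). Of 7 entries 4 were higher and 2 lower (median log2 ratio 1.08, or 2.25 relative to the median gene, and 5 higher and 2 lower with mitochondrial genes left out of the total). RPPH1 made up 2 of the 7 entries, lower in 1 (-1.46) and higher in the other (1.11). The same RNA thus added to both counts, and the entries are not all separate RNAs. Against untreated nascent RNA 1 was higher and 6 were lower, with RN7SL1 and RN7SK at 267282 and 31896 CPM there. The long nuclear RNA NEAT1, scaffold of paraspeckles, stood at 216 CPM in DMSO and 528 CPM in ActD (1.29), below its 1402 CPM in untreated nascent RNA, and MALAT1, of nuclear speckles, at 6519 CPM in DMSO and 4531 CPM in ActD (-0.52). TUG1 (1.28) and CRNDE (2.51) were higher and PVT1, the neighbour of MYC, was at 11.1 CPM in DMSO and 0.0794 CPM in ActD with 1 count in ActD (counting interval -12.44 to -4.63). Together the nuclear long non-coding RNAs gave 4 higher and 4 lower of 14 (median log2 ratio 0.12, or 1.29 relative to the median gene, and 5 higher and 3 lower with mitochondrial genes left out of the total). SNORD3A, the U3 small nucleolar RNA, stood at 47.9 CPM in DMSO and 0.0532 CPM in ActD, with under 1 count in ActD, against 4041 CPM in untreated nascent RNA. Of 11 such small nucleolar and Cajal body RNAs 4 were higher and 7 lower (median log2 ratio -1.28, or -0.11 relative to the median gene, and 4 higher and 6 lower with mitochondrial genes left out of the total), and of 3 kept spliceosomal snRNAs 0 were higher and 2 lower. Of the 508 kept genes that RefSeq types as long non-coding, 28.7% were higher and 49.4% lower, against 13.2% and 53.6% of protein-coding genes.

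The highest single ratios came from genes that were nearly silent in DMSO, which a ranking by the ratio to DMSO favours. Among genes with at least 10 counts in each library and a mean of at least 20 CPM, the 12 highest ran from 4.70 to 5.59. Among them were SH2B2, an adaptor of receptor kinases, AC156455.1, MED31 of the Mediator complex, LLGL2 of cell polarity, ZP3, NTNG2, the tetraspanin CD151, the collagen gene COL4A4, FAM229A, RP11-196G18.23 and the mitochondrial protease OMA1. SH2B2 stood at 0.762 CPM in DMSO and 83.97 CPM in ActD, with 11 counts in DMSO. MED31 stood at 0.762 CPM in DMSO and 58.9 CPM in ActD and CD151 at 1.52 CPM in DMSO and 71.9 CPM in ActD. Untreated nascent levels were 2.503 CPM for SH2B2, 0.914 for MED31 and 21.1 for CD151. COL4A4 was also high in DRB, at 37.4 CPM against 0.209 CPM for SH2B2.

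The 12 lowest ran from -5.80 to -4.87. After SQLE came WDR26 (109 CPM in DMSO and 1.27 CPM in ActD), TXNL1, CEP170 of the centrosome, STRN4, ARMC8, AURKA, DNAJA2, MRPL44, RP11-367J11.2, SEC23B of secretory vesicle coats and TLK2, a kinase of chromatin assembly. TLK2 had the highest DMSO level of these, 379 CPM in DMSO and 12.03 CPM in ActD, against 26.9 CPM in untreated nascent RNA. For TXNL1 the levels were 105 CPM in DMSO and 1.19 CPM in ActD and 22.5 CPM untreated. In all 12 the DMSO level was the highest of the 4 nascent libraries. Ranking by the ratio to DMSO puts DMSO above ActD in each of them and favours genes with a high value in the DMSO library.

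Acetylated H2A.Z marks active start sites, and its deposited peaks were set beside the 3 classes of genes. A peak of the DMSO list lay within 1000 bases of the start of 700 of 892 higher genes with a single promoter entry (78.5%, exact 95% interval 75.6 to 81.1%). It did for 86.9% of lower genes (85.7 to 88.0%) and 92.6% of genes within 2-fold. With the ActD list the shares were 71.2%, 82.5% and 87.6%. Among genes with a mean of at least 20 CPM the DMSO shares were 90.6%, 96.5% and 96.1%. Higher genes thus had the lowest share in each of these 3 readings, and they also had the lowest DMSO levels, with a median of 4.09 CPM against 12.6 CPM in lower and 27.2 CPM in other genes, whose part in the difference was not tested. Starts of JUN, JUNB, FOS and PPP1R15A had an acH2A.Z peak in both lists and FOSB in the ActD list alone. Peaks of H2A.Z itself lay near 9.75% of higher, 11.1% of lower and 15.02% of other genes in the DMSO list.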

How the data were processed

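RNA of HL-60 cells was measured in 1 library per group. The authors deposited expected counts (estimated reads per gene), TPM and FPKM for 58233 genes, per the file headers. The tables of the treated cells pack these values into 1 space-separated field, which was split, the other values in it being left aside. Build GRCh38 and Trim Galore, cutadapt, FastQC, STAR 2.5.2b and HOMER come from the submitters' processing notes. The quantifier and annotation are not given in the sources used here, nor is strand use, so overlapping and antisense genes are uncertain. Peak lists hold a normalized tag count, a signal per peak that the authors made with HOMER per library, per the file headers, and served only to place peaks.

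Expected counts were scaled to CPM over all genes, and again without genes whose symbol starts MT-. Genes with a mean of at least 1 CPM were kept, and log2 ratios were taken with 1 CPM added (Python 3.11.15, pandas 2.3.3, SciPy 1.17.1). Counting intervals are exact (Clopper-Pearson) 95% intervals of the count ratio with nothing added. The calls and intervals were tested on simulated data. Groups follow the sample titles. The members and gene lists were chosen with earlier results of these data known, and the ribosomal protein, respiratory chain and histone lists were trimmed of most pseudogenes, paralogs and assembly factors after values had been seen. Named genes are the 12 highest and 12 lowest with at least 10 counts in each library and a mean of at least 20 CPM, read-through symbols aside, 3 members at most from either end of every list, given at least 100 summed counts, 16 genes listed by name and the 5 most abundant genes of each library. Early-response members, and some others, were named after their values were seen. Symbols, spans and promoters came from RefSeq tables, with 11120 kept genes matched to a span and 6325 to a single promoter entry. Alternatives changed the scale, the added CPM, the filter, the reference library and the unit. Input and other libraries of the series were not used here, and a few genes that the naming rule picks are not reported here.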

Additional observations from a re-analysis of the deposited data

How the results depend on the processing

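The size of the lean towards lower ratios depended on the processing. The median stayed below 0 under every alternative except relative to the median gene, a scale that fixes it at 0. The median log2 ratio, -1.17 as reported, was -0.93 without mitochondrial genes in the total, -0.86 also without ribosomal RNA and RNA polymerase III genes, -0.72 without MT-RNR2, -1.27 and -0.66 with 0.25 and 5 CPM added, -0.70 with no low-value filter, -0.77 and -0.46 at means of at least 5 and 20 CPM, -0.93 without genes at 0 counts, -1.29 with the deposited TPM values and 0 by construction relative to the median gene. The share of called genes that were higher, 23.05% as reported, was 28.7%, 29.9% and 32.3% on the first 3 of those scales, 24.5% with 5 CPM added, 21.8% with no filter, 28.4% and 33.6% at the higher means, 25.6% without genes at 0, 21.7% with TPM, 25.6% against untreated nascent RNA and 53.7% relative to the median gene. The number of genes higher in ActD was 3879 relative to the median gene and 791 at a mean of at least 20 CPM, where fewer genes were counted. The number of genes lower in ActD was 3345 relative to the median gene, 4288 with 5 CPM added, and 3794 and 1562 at means of at least 5 and 20 CPM. The span difference stayed below 0 under every alternative, at -0.49 with 5 CPM added, -1.10 at a mean of at least 5 CPM and -0.38 against untreated nascent RNA. The transcript length difference was -0.76 and -0.74 at means of at least 5 and 20 CPM, and positive against untreated nascent RNA (0.40) and with TPM (0.78); the cause was not tested.

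Of 148 named genes past 2-fold, mitochondrial ones included, 131 remained so in the same direction relative to the median gene, 137 with 5 CPM added and 118 against untreated nascent RNA. Without mitochondrial genes in the total 143 of the 145 nuclear ones did, and AEN (-0.94) and BCL2 (-0.69) fell within 2-fold. Against untreated nascent RNA 15 changed sign, namely CEBPB (-1.29), COX8A (-0.43), EZH1 (-0.39), IER2 (-0.73), KDM4B (-0.16), KLF10 (0.19), MT-CYB (3.60), MT-ND5 (3.89), NEAT1 (-1.41), NELFB (-0.49), POLR2A (1.54), RN7SK (-3.28), RN7SL1 (-3.70), TERT (-0.64) and TOP3B (-1.19). With TPM 2 did, DNMT3A (-1.29) and EPB41L4A-AS1 (-0.50), and relative to the median gene BCL2 did (0.16). List medians past 2-fold that changed sign were those of RNA decay (0.023), S-phase (0.10), chaperone (0.012), p53 target (0.14) and mitochondrially encoded genes (0.15) relative to the median gene. With untreated nascent RNA as the reference those of mitochondrially encoded genes (2.25) and RNA polymerase III transcripts (-3.49) did, with TPM that of spliceosomal snRNAs (0.26), and at a mean of at least 20 CPM those of the NF-kappa-B (0.77) and feedback lists (0.54). At that mean the early-response (1.48), BCL2 family (1.24) and respiratory chain medians (0.25) changed sign too, from values within 2-fold. The cause was not tested. The alternatives with a mean of at least 20 CPM, without genes at 0, without MT-RNR2, and the span quintiles without ribosomal protein genes or with all gene types were chosen after seeing the data. No paired analysis was possible because each group has 1 library, so no replicate could be left out either. Depth limits genes under about 10 counts: in ActD 9067 genes reached that number.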
